A study of Mus musculus with 8 samples.

Results

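The cholesterol synthesis enzymes and regulators described here were 7 genes, Hmgcs1, Idi1, Fdft1, Sqle, Lss, Cyp51 and Insig1. They were read through every probe set that the platform annotation assigned to one of these symbols and to no other gene, which gave 19 of the 45101 probe sets on the array and 7 of the 18194 genes named. RNA of whole embryonic kidneys of Lim1 conditional mutants (E14.5M and E18.5M) and of their controls (E14.5C and E18.5C) had been hybridized to 8 Affymetrix mouse arrays. Lim1, also called Lhx1, encodes a transcription factor without which nephrons do not form.

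E14.5C was a pool of kidneys from 23 embryos, E14.5M from 17, E18.5C from 14 and E18.5M from 9, all on a mixed 129, C57BL/6 and SJL/J background and of both sexes. Mutants were Lim1 flox/lacZ; Rarb2-Cre tg/+ and controls were Lim1 flox/+; Rarb2-Cre tg/+. All 4 pools therefore carried the Cre transgene, whose activity lies in the metanephric mesenchyme, and 1 floxed Lim1 allele. The controls thus lost 1 copy of Lim1 in that tissue, and the mutants lacked 1 copy in every other cell of the kidney as well, the ureteric bud included. Each pool was measured on 2 arrays from 2 target preparations of the same RNA, so the spread between them is technical and each condition had 1 biological sample. No p-value was computed between 2 pools for this reason, and a gene counted as higher or lower only by a rule of size. The rule required a ratio of at least 1.5 between the means of the duplicate arrays, larger than the fold between the duplicates of either pool. It also required both arrays of the higher pool to lie above both arrays of the lower pool and at or above the 40th percentile of signal of their array. For a gene with several probe sets the one with the highest mean signal was taken unless another is named, and the range of a ratio over the 4 pairings of 1 array from each pool is given as its error. The signals of different genes were not compared with each other, because probe sets have no common scale.

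Cells make cholesterol from acetyl-CoA through mevalonate, isoprenoids, squalene and lanosterol. The genes of these steps are transcribed together under SREBP transcription factors, membrane proteins that are cleaved and enter the nucleus when sterols in the endoplasmic reticulum fall. Insig proteins hold the SREBP escort protein Scap in the endoplasmic reticulum when sterols are plentiful, and Insig1 is itself an SREBP target. SREBPs bind the sterol regulatory element of a promoter, usually beside sites for NF-Y, which binds CCAAT, and for Sp1, which binds GC boxes.

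RefSeq promoters of 300 bases (250 before to 50 after the gene start, GRCm38.p6) were held for 5 of the 7 genes, Hmgcs1, Cyp51, Idi1, Lss and Insig1. The 4 below are shown because Hmgcs1, Cyp51 and Idi1 passed the rule of size at E18.5 whereas Insig1, the regulator, did not. Capitals mark every match to TCACNCCAC, a form of the sterol regulatory element, to CACGTG, an E-box that SREBPs can also bind, and to CCAAT, which reads ATTGG on the other strand. The first is on the plus strand at chr13:119690101-119690400, the second on the minus strand at chr5:4104648-4104947, the third on the plus strand at chr13:8885356-8885655 and the fourth on the plus strand at chr5:28071162-28071461.
Hmgcs1: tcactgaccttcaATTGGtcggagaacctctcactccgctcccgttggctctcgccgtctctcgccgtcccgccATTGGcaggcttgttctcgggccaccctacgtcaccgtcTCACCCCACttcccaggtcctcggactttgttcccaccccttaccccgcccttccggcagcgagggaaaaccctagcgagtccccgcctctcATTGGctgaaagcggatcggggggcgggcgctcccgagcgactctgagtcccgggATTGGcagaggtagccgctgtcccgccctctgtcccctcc
Cyp51: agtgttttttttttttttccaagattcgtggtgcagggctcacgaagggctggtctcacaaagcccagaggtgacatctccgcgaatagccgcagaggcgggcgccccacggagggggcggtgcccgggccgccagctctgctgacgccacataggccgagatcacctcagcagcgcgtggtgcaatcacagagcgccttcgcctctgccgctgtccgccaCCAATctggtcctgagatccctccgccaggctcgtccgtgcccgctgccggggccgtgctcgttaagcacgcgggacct
Idi1: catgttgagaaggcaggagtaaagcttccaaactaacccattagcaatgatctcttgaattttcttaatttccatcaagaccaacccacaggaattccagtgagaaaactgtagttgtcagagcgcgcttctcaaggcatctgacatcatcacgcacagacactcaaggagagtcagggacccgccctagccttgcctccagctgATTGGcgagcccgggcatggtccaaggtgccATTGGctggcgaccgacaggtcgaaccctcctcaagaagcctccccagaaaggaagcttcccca
Insig1: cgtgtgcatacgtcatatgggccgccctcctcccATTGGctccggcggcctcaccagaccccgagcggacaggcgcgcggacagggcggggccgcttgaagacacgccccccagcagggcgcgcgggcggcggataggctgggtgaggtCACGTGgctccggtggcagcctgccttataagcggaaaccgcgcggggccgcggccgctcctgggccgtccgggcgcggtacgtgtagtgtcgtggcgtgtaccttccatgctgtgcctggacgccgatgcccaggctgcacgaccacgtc

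On either strand, TCACNCCAC was found in the Hmgcs1 promoter alone of the 5, with its first base 137 bases before the start, and in 1.24% of the 32851 promoters in the table. The shorter form CACCCCAC was also found in Hmgcs1 alone, at the same place because it overlaps the longer match, and in 2.87% of all promoters. The E-box occurred in Insig1 alone of the 5 and in 7.15% of all promoters. CCAAT occurred in all 5, against 37.4% of all promoters, and Hmgcs1 held 4 copies of it. The GC box GGGCGG also occurred in all 5, against 35.7% of all promoters. These letter matches were not tested for binding, and a motif that was not matched says only that these exact letters are not in the window.

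At E18.5 the control kidney had higher signals than the mutant kidney for 4 of the 7 genes by the rule of size, at 1.61- to 3.60-fold. These were Hmgcs1, Cyp51, Sqle and Idi1. Over all 13545 genes tested, 5.51% were higher in E18.5C by the same rule. The members were chosen with earlier results of these data known, so such shares give a scale and no test. No member was lower in E18.5C, against 0.945% of all genes. With a limit of 2-fold, Hmgcs1 and Cyp51 passed, against 2.36% of all genes. The median of the 7 log2 ratios was 0.69 (0.54 to 0.86 over the array pairings) and the median over all genes tested was -0.02. At E14.5 none of the 7 passed in either direction, against 0.317% of all genes higher and 0.393% lower in E14.5C, and the median of the members was 0.05 (-0.11 to 0.22). In bulk RNA, fewer cells of a type and less RNA per cell cannot be told apart.

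Hmgcs1 encodes HMG-CoA synthase of the cytosol, which condenses acetyl-CoA with acetoacetyl-CoA at the head of the mevalonate pathway. Its signal was 2014 and 2388 on the E14.5C arrays, 1694 and 1592 in E14.5M, 3007 and 3427 in E18.5C and 751 and 1036 in E18.5M. Both E18.5C arrays lay above the other 6 arrays and both E18.5M arrays lay below them. The control kidney was 3.60-fold higher than the mutant kidney at E18.5 (2.90 to 4.56) and 1.34-fold higher at E14.5 (1.19 to 1.5), where the ratio did not pass. From E14.5 to E18.5 the ratio in the control was 1.46 (1.26 to 1.70), short of the rule, while in the mutant the signal fell to 0.54 of its earlier value (0.44 to 0.65), which passed.

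Cyp51 encodes the cytochrome P450 that demethylates lanosterol. Its signal was 439 and 502 in E14.5C, 475 and 454 in E14.5M, 990.0 and 976 in E18.5C and 291 and 348 in E18.5M. The 4 arrays of E14.5 kidneys overlapped, whereas the E18.5C arrays lay above and the E18.5M arrays below all of them. The ratio of control to mutant was 3.08 at E18.5 (2.81 to 3.40) and 1.01 at E14.5 (0.92 to 1.10). The rise in the control from E14.5 to E18.5 was 2.09-fold (1.95 to 2.25) and passed, and the mutant value of 0.69 (0.61 to 0.77) did not.

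Sqle encodes squalene epoxidase, the oxygen-requiring step that commits squalene to sterols. Its signal was 811 and 814 in E14.5C, 853 and 944 in E14.5M, 1226 and 1234 in E18.5C and 555 and 687 in E18.5M. The order of the pools was the one seen for Cyp51, except that both E14.5M arrays lay above both E14.5C arrays, by a ratio of control to mutant of 0.90 (0.86 to 0.95). At E18.5 the ratio was 1.98 (1.78 to 2.22). The control rose 1.51-fold with stage (1.51 to 1.52), close to the limit, and no longer passed with quantile normalization or an offset of 50. The mutant ratio of 0.69 (0.59 to 0.81) did not pass.

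Idi1 encodes isopentenyl-diphosphate isomerase, which supplies the allylic starter unit of isoprenoids. Its signal was 707 and 823 in E14.5C, 768 and 706 in E14.5M, 713 and 730.2 in E18.5C and 403 and 492 in E18.5M. Only the E18.5M arrays stood apart, and the other 6 overlapped. The ratio of control to mutant was 1.61 at E18.5 (1.45 to 1.81) and 1.04 at E14.5 (0.92 to 1.17). Over the 2 stages the control ratio was 0.94 (0.87 to 1.03) and the mutant fell to 0.61 of its E14.5 value (0.52 to 0.70), which passed.

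**Figure D1:**
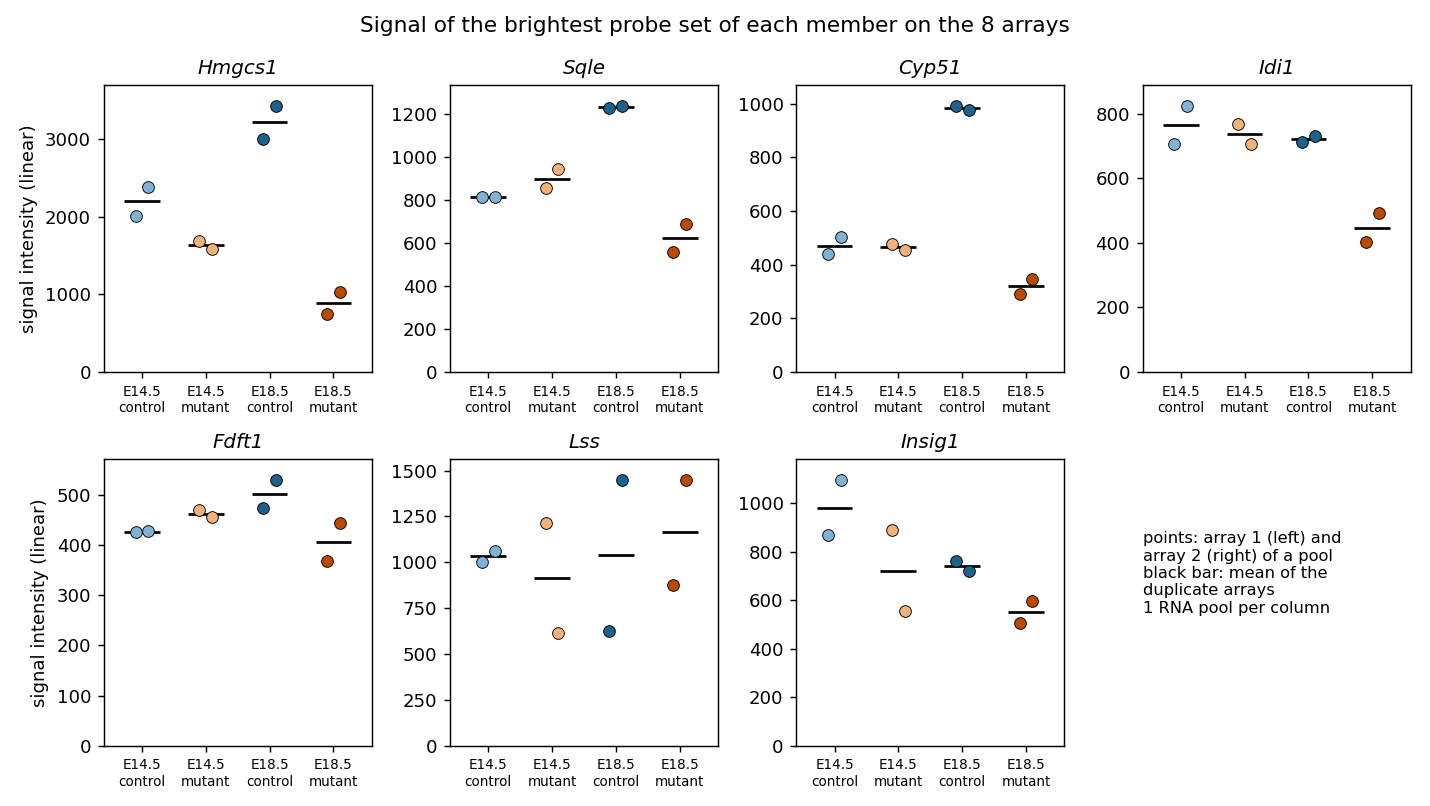
Linear signal intensity (vertical axis, from 0) of the brightest probe set of each of the 7 genes in the 4 pools (horizontal axis), with 1 point per array and a bar for the mean of the duplicate arrays. For Hmgcs1, Sqle and Cyp51 both E18.5C arrays are the highest and both E18.5M arrays the lowest of the 8, for Idi1 only the E18.5M arrays stand apart, and the duplicate arrays of Lss lie far from each other.

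Fdft1 encodes squalene synthase, which joins a pair of farnesyl units into squalene. Its signal was 426 and 428 in E14.5C, 470.0 and 456 in E14.5M, 474 and 530.1 in E18.5C and 367 and 445 in E18.5M. The groups did not overlap at E18.5, yet the ratio of control to mutant was 1.24 (1.07 to 1.44), below the limit of the rule. At E14.5 it was 0.92 (0.91 to 0.94).

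Lss encodes lanosterol synthase, which closes the rings of the sterol. Its brightest probe set read 1001 and 1063 in E14.5C, 1216 and 612 in E14.5M, 626 and 1448 in E18.5C and 877 and 1449 in E18.5M. The duplicate arrays differed 1.99-fold in E14.5M, 2.31-fold in E18.5C and 1.65-fold in E18.5M. The arrays overlapped in all 4 comparisons. The ratio of control to mutant at E18.5, 0.89, ranged from 0.43 to 1.65 over the array pairings and gives no direction. A pool left with 1 array has no fold between duplicates, so that condition of the rule no longer applies to it. Without array 2 of E18.5C, Lss passed as lower in the control at E18.5 (log2 ratio -0.89) and over the stages (-0.72). Without array 1 of E14.5M it passed as higher in the control at E14.5 (0.75) and as higher over the stages in the mutant (0.93). The suffix of this probe set, s_at, marks probes that match more than 1 transcript, and the other Lss probe sets were below the 40th percentile on every array.

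Insig1 gave 868 and 1095 in E14.5C, 889 and 555 in E14.5M, 763 and 719 in E18.5C and 506 and 596 in E18.5M. The E18.5C arrays lay above the E18.5M arrays and the E14.5 pools overlapped. The ratio of control to mutant was 1.34 at E18.5 (1.21 to 1.51) and 1.36 at E14.5 (0.98 to 1.97), and neither passed, although without array 1 of E14.5M the E14.5 ratio did (log2 ratio 0.82). With stage, the ratio was 0.75 in the control (0.66 to 0.88) and 0.76 in the mutant (0.57 to 1.07), and neither of these passed.

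**Figure D2:**
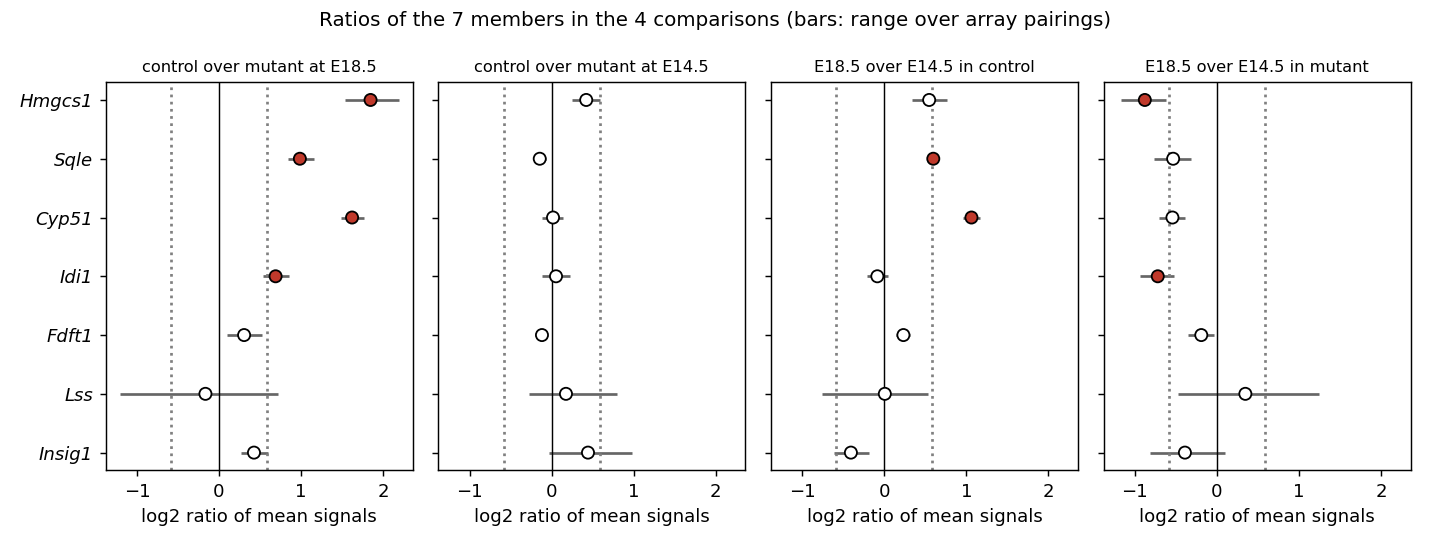
Log2 ratio of mean signals (horizontal axis) of the 7 genes in each of the 4 comparisons (panels), with a bar for the range over array pairings, filled points for genes that passed the rule of size, a line at 0 and dotted lines at 1.5-fold. At E18.5 Hmgcs1, Sqle, Cyp51 and Idi1 are filled on the control side, no gene is filled at E14.5, and the bar of Lss spans 0 in all 4 panels.

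The members can also be read along development. In the control, Sqle and Cyp51 were higher at E18.5 than at E14.5 and none was lower, where 11.4% of all genes were higher and 5.01% lower, and the median of the members was 0.23 (0.15 to 0.53). With a mean over all probe sets of a gene this median was 0.0010. In the mutant, Hmgcs1 and Idi1 were lower at E18.5, where 5.22% of all genes were lower and 4.0% higher, and the median was -0.53. The mutant median was -0.71 to -0.38 over the array pairings, and over all genes it was 0.03. Without array 1 of E18.5M, which had the lower signals of that pool for all 7 genes, 1 member was lower in the mutant, Hmgcs1, and without array 2 there were 4, with Sqle and Cyp51 added. At E18.5 alone, Idi1 no longer passed without array 1 of E18.5M, which left 3 genes higher in the control.

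Both E18.5M arrays lay below all 6 other arrays for 4 of the 7 genes (Hmgcs1, Sqle, Cyp51 and Idi1), against 5.8% of 13915 genes. Both E18.5C arrays lay above all 6 others for Hmgcs1, Sqle, Cyp51 and Fdft1, against 15.5% of genes. Hmgcs1, Sqle and Cyp51 did both, against 1.14% of genes. These 3 counts come from the same arrays as the ratios and are not further evidence for them. The log2 ratio of control to mutant at E18.5 exceeded that at E14.5 in 5 of the 7 genes, and in 6691 of all 12861 genes tested at both stages. The median difference of the members was 0.64, with a range from -0.34 for Lss to 1.60 for Cyp51. The ratio was at least 1.5-fold above that at E14.5 for 4 members (Hmgcs1, Sqle, Cyp51 and Idi1) and for 753 of the 12861 genes, whose median difference was 0.01. This difference had no residual degree of freedom and was not tested.

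The only test that took pools as its unit was limma on the 4 pool means with additive terms for genotype and stage, and no probe set of a member passed its Benjamini-Hochberg threshold for either effect. For the genotype effect common to both stages, 0.0% of 27061 probe sets passed, and 1045 had an unadjusted p under 0.05. The log2 genotype effect of Hmgcs1 was 1.14 (SE 0.34, limma adjusted p = 0.9998) and that of Insig1 0.45 (SE 0.11, limma adjusted p = 0.9998). For the stage effect common to both genotypes, 8.62% passed, and the member probe set with the lowest adjusted p was a dimmer one of Fdft1, at -0.58 on the log2 scale (SE 0.14, limma adjusted p = 0.0731). The fit had 1 residual degree of freedom and assumes that the stage change was the same in both genotypes. The stage ratios of Hmgcs1, Sqle and Cyp51 lay above 1 in the control and below 1 in the mutant.

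Several genes had more than 1 probe set, which read the same RNA, and whether they share probes was not checked. Of the 19 probe sets, 4 were below the 40th percentile on every array (1 of Hmgcs1, 1 of Cyp51 and 2 of Lss). The other 3 probe sets of Hmgcs1 gave ratios of control to mutant at E18.5 of 3.25, 3.36 and 2.98, and all passed. They also passed as higher with stage in the control, at 1.73-, 1.62- and 1.76-fold, where the brightest did not at 1.46-fold. The second Cyp51 probe set read 331 and 350 in E18.5C and 158 and 180 in E18.5M, a ratio of 2.02 (1.84 to 2.22), but its stage ratio in the control was 1.18 (1.07 to 1.31), which did not pass, against 2.09 for the brightest. The second Idi1 probe set gave 1.91 (1.57 to 2.35) at E18.5 and 0.44 (0.34 to 0.56) over the stages in the mutant. For Fdft1 the probe sets disagreed, since the ratio of control to mutant at E18.5 was 1.46 (1.25 to 1.76) for the second brightest and 1.00 (0.88 to 1.12) for the third. Their stage ratios in the control were 0.75 and 0.72, whereas the brightest gave 1.18, so no direction can be given for Fdft1 over development in the control. In the mutant the stage ratio was 0.88 (0.78 to 0.97) for the brightest and 0.83 (0.78 to 0.89) for the third, and neither passed. The second brightest gave 0.59 (0.49 to 0.70) in the mutant, which passed as lower.

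**Figure D3:**
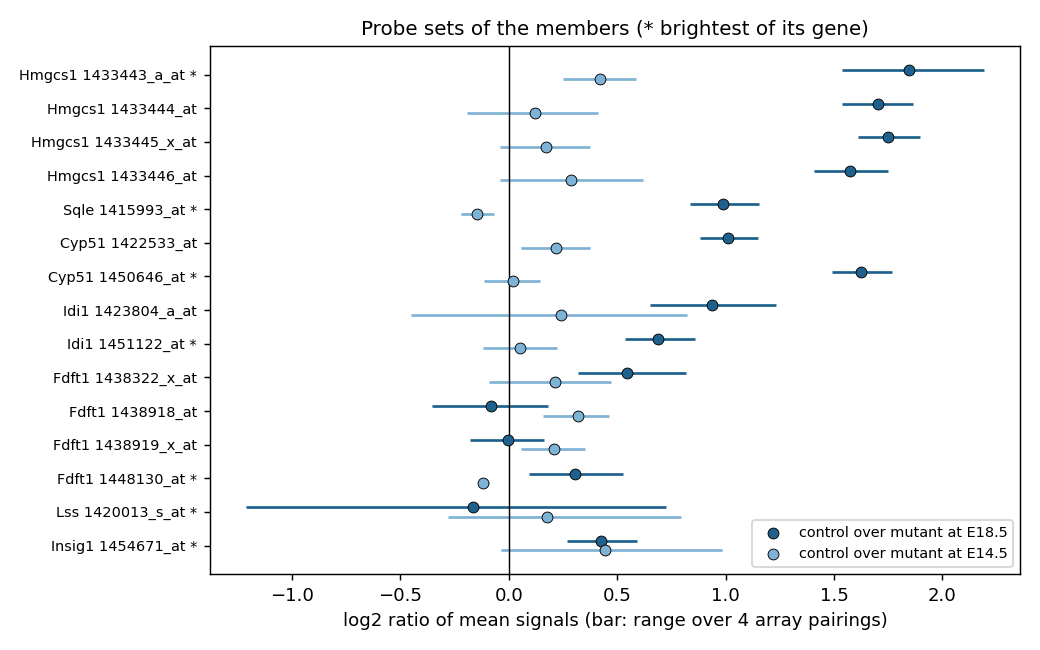
Log2 ratio of control to mutant (horizontal axis) at E18.5 (dark) and at E14.5 (light) for the 15 member probe sets that reached the 40th percentile of signal on at least 1 array, with bars for the range over 4 array pairings and an asterisk at the brightest of each gene. The Hmgcs1, Sqle, Cyp51 and Idi1 probe sets lie right of 0 at E18.5 with bars apart from those at E14.5 except for the second Idi1 probe set, and those of Fdft1 lie on both sides of 0.

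The rest of the sterol pathway was compared through 17 further enzymes, of which 14 were read. At E18.5, 2 of the 14 were higher in the control and none lower, where 5.51% of all genes were higher and 0.945% lower, and their median log2 ratio was 0.09. Msmo1, the methylsterol oxidase that acts after Cyp51, read 795 and 868 in E18.5C and 386 and 523 in E18.5M, a ratio of 1.83 (1.52 to 2.25). Ebp, a sterol isomerase late in the pathway, read 614 and 656 in E18.5C and 397 and 417 in E18.5M, a ratio of 1.56 (1.47 to 1.65). The other 12 had ratios from 0.81 for Ggps1 to 1.36 for Pmvk. In the mutant over the stages, Msmo1 fell to 0.57 of its E14.5 signal and Ggps1, which makes the isoprenoid used for protein prenylation, to 0.54. Ggps1 also fell in the control, to 0.46, and was past the limma threshold for stage (log2 change -0.99, adjusted p = 0.0223), as no member was.

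The SREBP factors and their sensors were described by 8 genes, of which 7 were read, and by the brightest probe set none passed the rule in any of the 4 comparisons. A second Srebf2 probe set passed as higher with stage in the control, at 1.58-fold (1.34 to 1.90). Their median log2 ratio of control to mutant at E18.5 was 0.08. Srebf2, the SREBP gene best known for sterol synthesis, gave 916 and 835 in E18.5C and 865 and 789 in E18.5M, a ratio of 1.06 (0.97 to 1.16). Srebf1 gave 1.17 (1.16 to 1.18), and Insig2, the counterpart of Insig1, gave 1.13 (1.07 to 1.19). The array reads messenger RNA, and cleavage of the SREBP proteins was not measured.

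Among 14 genes of sterol uptake, transport, efflux and storage, 10 were read, and by the brightest probe set 1 was higher in the control at E18.5, against 5.51% of all genes. It was Lrp2, at 20.2-fold (19.5 to 20.8) over signals of 98.8 and 104 in E18.5M that lie below the 40th percentile of their arrays, so the size of the fold is uncertain. Lrp2 encodes megalin, an endocytic receptor of the proximal tubule. The other genes read had ratios of control to mutant at E18.5 from 0.68 for Abca1 (0.66 to 0.69) to 1.47 for Stard4 (1.39 to 1.55), and none passed. The median log2 ratio of the 10 was -0.03. Over the stages in the mutant, Stard4, which carries sterol between membranes and is an SREBP target, gave 0.58 of its E14.5 signal by its brightest probe set, which passed, but 0.88 and 1.19 by the other 2. One of these passed as higher in the control at E18.5, at 1.92-fold (1.70 to 2.19). Over the same stages in the mutant, Scarb1, Abca1 and Apoe rose 1.52-, 1.91- and 3.65-fold. These 3 were also higher at E18.5 in the control, at 1.75-, 1.54- and 4.01-fold. Of 10 genes of fatty acid synthesis, Acss2, which makes acetyl-CoA from acetate, was the 1 that passed as higher in the control at E18.5, by the brightest probe set, at 2.40-fold (2.24 to 2.57). Its E18.5M signals of 135 and 151 were also below the 40th percentile. The median of the 10 was 0.02, and the other 9 ran from 0.84 for Acaca to 1.38 for Scd2. The dimmer Scd2 probe sets gave 1.22 (1.09 to 1.38) and 0.86 (0.81 to 0.90), so they disagreed in direction.

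**Figure D4:**
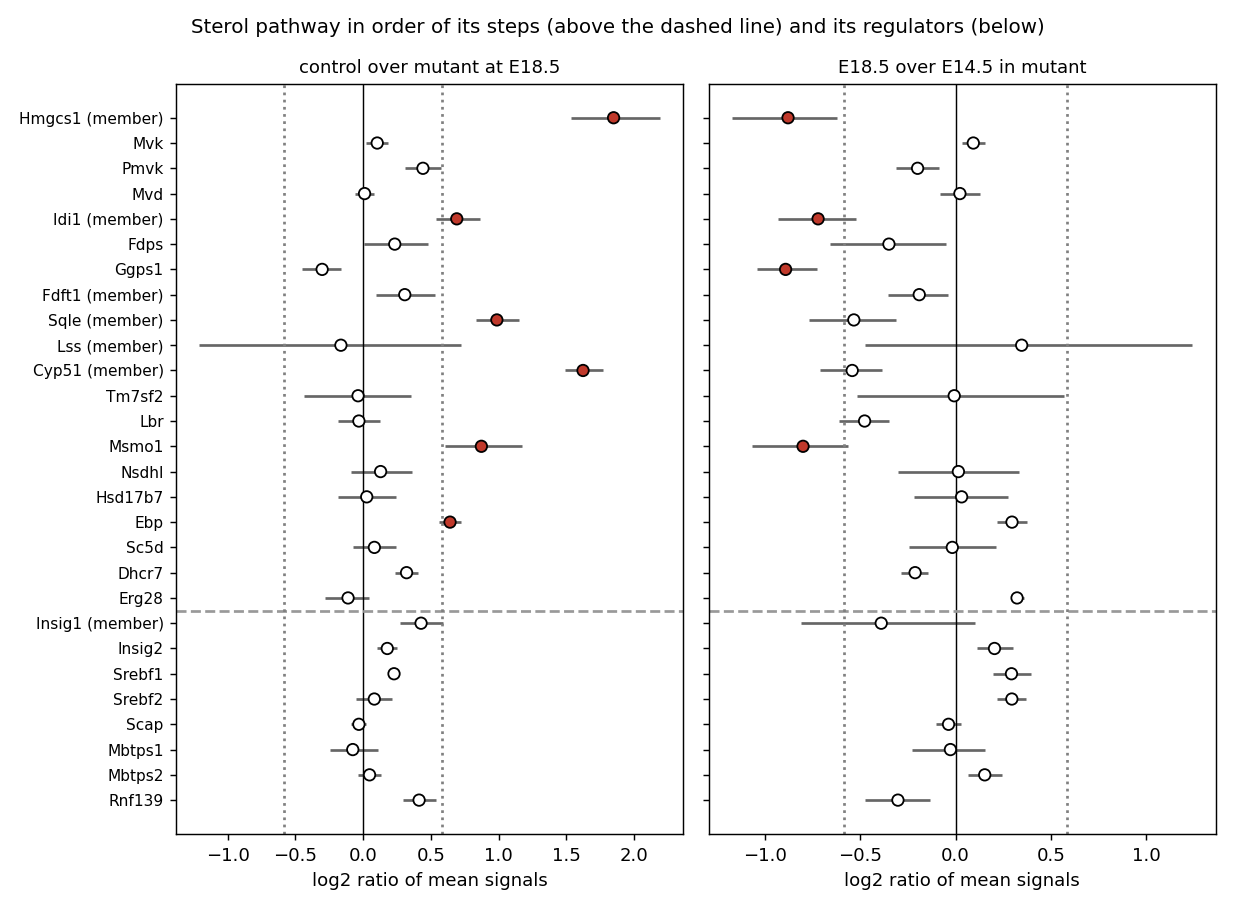
Log2 ratio of mean signals (horizontal axis) for the genes of sterol synthesis roughly in the order of their steps (above the dashed line) and their regulators (below). The panels show control over mutant at E18.5 (left) and E18.5 over E14.5 in the mutant (right). Ggps1, which makes the isoprenoid used for protein prenylation, is drawn among the steps. Bars are ranges over array pairings, filled points passed the rule of size and dotted lines mark 1.5-fold; in the left panel the filled points are 4 of the 7 members, Msmo1 and Ebp, and no regulator is filled in either panel.

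Across the 4 pools, the mean of the 7 members, each centred on its own log2 mean, was 0.09 in E14.5C, -0.03 in E14.5M, 0.37 in E18.5C and -0.44 in E18.5M. Of 12704 genes outside the lists, the 5 nearest to this profile were Agps, Cox6b1, Txndc17, Timm17a and Lactb, at root mean square distances of 0.02 to 0.03 on the log2 scale over the 4 pools. Agps, an enzyme of ether lipid synthesis, had mean signals of 934, 863, 1095 and 644 in the same order of pools. Single members lay farther from their mean, from 0.12 for Sqle to 0.38 for Hmgcs1, whose changes were of greater size, with Lss at 0.37. Of 12780 genes, the lists included, 96 lay closer to this mean than Sqle, 271 than Idi1, 493 than Fdft1 and 1173 than Insig1. For Cyp51, Lss and Hmgcs1 the numbers of genes closer were 5957, 8572 and 9330.

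Markers of other cells moved with the genotype difference at E18.5, and their part in the results was not tested. Of 8 proximal tubule markers, 6 were bright enough to be read and 5 of these were higher in E18.5C, with a median log2 ratio of 4.25 over the 6. The summed signal of all 8 compares pools and is weighted by the brightest probe sets. It was 1515 and 1516 in E14.5C, 1091 to 1364 in E14.5M, 15380 to 15992 in E18.5C and 1495 to 1630 in E18.5M, with none at 0. Hnf4a gave 562 and 668 of it in E18.5M, and its ratio of control to mutant at E18.5 was 1.22 (0.91 to 1.58). This was read from an s_at probe set whose duplicates differed 1.70-fold in E14.5M and 1.46-fold in E18.5C. The paper lists this gene as more than 2-fold higher in the control at both stages, so the probe set used here gives no reliable ratio for Hnf4a. Slc34a1, Cubn, Slc22a6 and Fbp1 were below the 40th percentile on both E18.5M arrays, so the size of their folds is uncertain. Of 5 markers of the loop of Henle and distal tubule, 4 were higher in E18.5C (median 2.38), as were 3 of 4 of the collecting duct (median 1.57). Of 4 nephron progenitor markers, 3 were lower in E18.5C (median -0.81). Among 4 podocyte markers read, 2 were higher in E18.5C (median 0.50), and among 4 macrophage markers 1 was lower (median -0.31). None of the 4 stroma markers passed (median -0.34), nor did the 1 marker of nerve and glia that could be read. The liver markers went both ways, since Afp and Ttr were higher in E18.5C, at 4.88- and 7.10-fold, Alb was lower, at a ratio of 0.49, and Apoa1 had a ratio of 0.97. None of the 4 adrenal cortex markers that could be read of 7, and none of the 4 markers of dividing cells read of 5, passed in either direction. The log2 differences between duplicate arrays had an SD of 0.29 in E18.5M and 0.19 to 0.22 in the other pools, and array medians ran from 225.4 to 242.7. The 2 Lhx1 probe sets did not separate the mutants from the controls. The brighter one had means of 483 in E14.5C, 559 in E14.5M, 361 in E18.5C and 314 in E18.5M, and the other had 377, 306, 362 and 419. Whether their probes lie in the deleted part is not known here, so they check no label.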

How the data were processed

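Kidney RNA of 4 pools was hybridized to 8 arrays of the Affymetrix Mouse Genome set, with 2 technical duplicates of each pool. The authors deposited signal intensities on a linear scale, which they modelled in dChip for every probe set and brought to a common level with its invariant-set method. Array medians ran from 225.4 to 242.7, which are not the values the methods state. Detection calls were not used here. The precision is limited by the 1 pool of each condition, since the 2 arrays of a pool share its RNA. Of the probe sets, 34958 had 1 gene, 932 several and 9211 none; 34754 were matched by gene identifier. Probe sets with several genes or none were not used for genes.

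Ratios were taken between means of duplicates. The limma fit (limma 3.58.1, R 4.3.3) used log2(signal + 1) for 27061 probe sets, those whose mean signal was not under its 40th percentile, with a threshold of 0.05 on the Benjamini-Hochberg adjusted p. The rule of size and the fit were run on simulated data with known changes. For the rule the noise was between arrays only, and for the fit the stage change was the same in both genotypes. These runs do not show how often single pools differ without an effect of genotype. Figures were drawn with matplotlib 3.10.9, and tables were handled in pandas 2.3.3 with numpy 2.4.6 under Python 3.11.15. The members, lists and tests were chosen with earlier results of these data known. Genes named outside the members passed the rule of size in a comparison, are a counterpart fixed with the lists (Insig2, Srebf1 and Srebf2), are the targeted gene or are the 5 nearest in profile; Pmvk, Acaca and the cell type markers named singly were chosen after their values were seen. Some listed genes were not analysed here.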

Additional observations from a re-analysis of the deposited data

Results flagged for a closer look

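For 4 of the 7 genes, the change from E14.5 to E18.5 went one way in the control and the other way in the mutant in every pairing of 1 array from each pool. The share of all genes that did so was not computed, so this count has no background to be read against. The stage change on the log2 scale in the control exceeded that in the mutant by 1.43 for Hmgcs1, by 1.13 for Sqle, by 1.60 for Cyp51 and by 0.42 for Fdft1. With 1 pool per condition the difference was not tested. The other 3 Fdft1 probe sets had stage ratios below 1 in both genotypes, so the opposite directions of Fdft1 rest on its brightest probe set.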

How the results depend on the processing

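No ratio of a member that had passed changed its direction under quantile normalization, median scaling, geometric means, an offset, another minimum signal, a mean over probe sets, or without any 1 array. For the results that answer a comparison, 109 of 114 values under the alternatives other than leaving out an array stayed close to the reported value. Of the members higher with stage in the control, 1 remained by count with an offset of 50 and 1 with quantile normalization, in place of 2. With a mean over all probe sets of a gene, the median stage change in the control was 0.0010, in place of 0.23. Arrays with the same number in different pools share only that number. With all 8 arrays fitted, pool as a random block and array number as a replicate block, 12 probe sets passed for genotype and 7753 for stage, in place of 0 and 2332, and no member passed.

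Leaving out each array in turn gave these ranges, in which the fold between duplicates set no limit for the pool left with 1 array. At E18.5, 3 to 4 members were higher in the control and 0 to 1 lower, the 1 being Lss without array 2 of E18.5C. At E14.5, 0 to 2 were higher in the control, the 2 being Lss and Insig1 without array 1 of E14.5M. With stage in the control, 2 to 3 were higher and 0 to 1 lower, and the median ran from 0.15 to 0.49. With stage in the mutant, 0 to 1 were higher and 1 to 4 lower. The median difference between stages ran from 0.50 to 0.79, and 3 to 4 members were at least 1.5-fold above 0. Probe sets past the limma threshold ran from 0 to 61 for genotype, the 61 being without array 2 of E18.5M, and from 1062 to 4149 for stage, the lowest without array 2 of E18.5C and the highest without array 1 of E18.5M. No member was among them in any of these fits.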
